A study of Mus musculus with 82 samples.

Results

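Ear skin of mice under daily imiquimod was compared between day 8 and day 5, in 12 of the 82 libraries of the series, 6 from each day. The mice were C57BL/6J Rj females, and cream with 5% imiquimod went onto the ears once a day, with 8 applications planned from day 0 to day 7. Each library was made from an RNA sample of a punch of the right ear, and neither group received the CCR6 inhibitor. The members were chosen by their labels alone: every library of the time course labelled with imiquimod without drug and with day 5 (numbers 25 to 30) or day 8 (numbers 44 to 49). Their change was read beside that of vehicle-treated (sham) ears of the same strain, sex and days, 4 libraries at day 5 and 6 at day 8. A further 12 libraries came from ears with imiquimod and IDOR-1117-2520, an oral small-molecule inhibitor of the chemokine receptor CCR6, which was given in the drinking water from at least 1 day before the first application. Imiquimod and sham ears of day 2 and of a separate experiment, all outside the 12 libraries, were used to group genes. The day-2 ears were fitted together with the 12, with 1 shared estimate of spread per gene, so only the separate experiment is fully independent of them. The labels do not say that each library is a separate animal, nor at which hour ears were taken, so p-values reflect the spread among these samples, part of which may be technical.

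Imiquimod activates Toll-like receptor 7 on innate cells, and repeated application to mouse skin gives a psoriasis-like dermatitis. In it, gamma delta T cells make IL-17 and IL-22, keratinocytes thicken the epidermis and release chemokines, and neutrophils and monocytes leave the blood for the skin. Early innate infiltration, epithelial stress, tissue repair and the arrival of conventional T cells need not follow the same course, which is what a comparison of a later with an earlier day under unbroken treatment can show.

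The 12 libraries held 14478242 to 24682215 estimated counts and 22835 to 24295 genes with a count. The day-8 libraries reached to lower depth, with 14478242 to 23678974 counts against 19813855 to 24682215 at day 5. Genes with a count were 22835 to 24295 at day 8 and 23725 to 24252 at day 5. A level of 3 counts stood at 0.131 to 0.22 CPM, which are counts per 1000000 counts of the library, and values below it are near the limit of detection. The keratinocyte genes Krt5 and Krt14 were high in all 12. Krt5 was 10375 to 11091 (median 10771) CPM at day 5 and 9717 to 11652 (median 10323) CPM at day 8, and Krt14 was 14850.2 to 17819 and 12750.5 to 15321 CPM. No pair of libraries within a group agreed within counting noise. In a principal component analysis of log2 CPM over the 12 ears, the first component held 19.8% of the variance and separated the days without overlap, day 5 from -42.9 to -9.81 and day 8 from 13.4 to 35.2. Library 30 lay farthest out on the day-5 side, and library 44 on the day-8 side. The second component (11.5% of the variance) split ears within each day and had libraries 28 and 44 at one end. The root mean square distance between ears was 0.614 log2 units across days (median of 36 pairs), against 0.555 within day 5 and 0.572 within day 8, so most of the distance was present among ears of the same day.

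**Figure D1:**
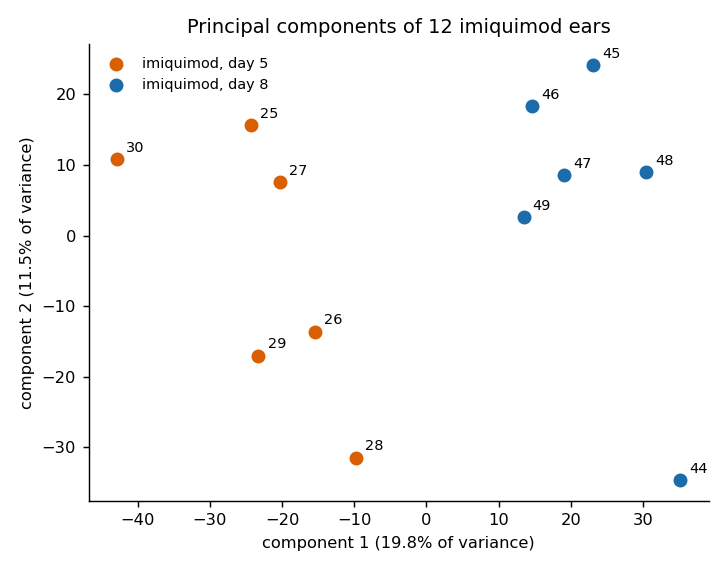
First and second principal components of log2 CPM in the 12 imiquimod ears, with the share of variance on each axis and library numbers beside the points. The days do not overlap on the first component, and libraries 30 and 44 lie at its ends.

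Of 18780 genes tested, 1110 were higher and 1104 lower at day 8 than at day 5 (edgeR quasi-likelihood test, Benjamini-Hochberg adjusted p under 0.05, called in what follows). This was 11.8% of the genes, 5.91% higher and 5.88% lower. Most changes were small: 90 of the higher and 133 of the lower genes differed at least 2-fold, that is, by a log2 change of 1 or more up or down, and over all genes the median log2 change was 0.0052. With relative log expression scaling in place of TMM (trimmed mean of M values), the split moved to 880 higher and 1491 lower. Without library 30 the counts were 697 and 680. Ears of the 2 days did not overlap at all for 538 genes higher at day 8 (2.86%) and 782 genes lower (4.16%). Counts of list members given below are to be read beside these shares.

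Sham ears changed less over the same days, with 89 genes higher and 206 lower at day 8 (1.57% of the genes). Of the 1110 genes that rose under imiquimod, 11 also rose in sham ears (0.991% of the former, 12.4% of the sham list), and of the 1104 that fell 29 also fell there (2.63% and 14.1%). The sham counts rest on few ears: without sham day 8 library 38 they were 25 and 87, and without sham day 5 library 21 they were 31 and 92, and without library 22 of that group 47 and 103. The difference between the imiquimod and the sham change, tested as an interaction, was called for 406 genes with a higher and 328 with a lower change under imiquimod (3.91% of the genes). Without sham day 5 library 21 these were 201 and 177, without library 22 they were 264 and 217, and without imiquimod library 30 they were 247 and 182. The lower count was 188 without sham day 5 library 20 and 218 without sham day 8 library 38.

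**Figure D2:**
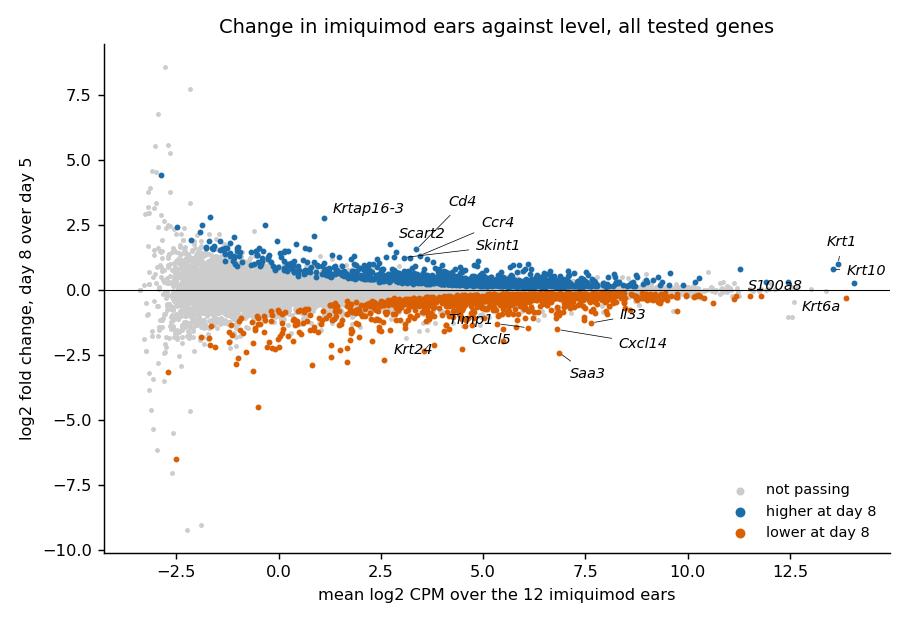
Log2 fold change of day 8 over day 5 in imiquimod ears (y axis) against mean log2 CPM over the 12 ears (x axis) for all tested genes, with called genes in blue (1110 higher) and orange (1104 lower). Saa3 and Cxcl5 lie among the called genes with large decreases, Cd4, Ccr4 and Scart2 among those with large increases, and Krt6a is grey because it did not pass.

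Neutrophil transcripts fell. Of 14 tested neutrophil markers (18 listed), 10 were lower and none higher at day 8 (5.88% and 5.91% of all genes). The list median was -1.39 log2 units against 0.0052 over all genes. The difference from the sham change (edgeR interaction) was called for 1 of the 14. Csf3r was 56.4 to 118 (median 101) CPM at day 5 and 22.3 to 40.6 (median 37.3) CPM at day 8. Csf3r, the receptor for the neutrophil growth factor G-CSF, fell with no overlap between the days (log2 change -1.42, SE 0.42, adjusted p = 0.0198), yet all 6 day-8 ears stayed far above the sham ears, at 0.671 to 1.62 CPM at day 5 and 0.778 to 1.85 CPM at day 8. Retnlg was 4.07 to 10.6 (median 5.3) CPM at day 5 and 0.587 to 1.44 (median 0.948) CPM at day 8. Retnlg, a resistin-like gene of mouse neutrophils, changed by -2.58 on the log2 scale (SE 0.57, adjusted p = 0.00191) with no overlap of the days. The formyl peptide receptor gene Fpr1 fell from a median of 6.88 CPM at day 5 (lowest 3.72, highest 11.8) to 1.44 CPM at day 8 (lowest 0.855, highest 2.02) (log2 change -2.24, SE 0.54, adjusted p = 0.00459). Mmp8, neutrophil collagenase, fell from a median of 6.16 CPM at day 5 (lowest 4.42, highest 10.4) to 1.73 CPM at day 8 (lowest 0.587, highest 2.44) (log2 change -1.94, SE 0.48, adjusted p = 0.00555). In neither gene did the days overlap. Leaving out 1 imiquimod library at a time, the calls that did not always hold were those of Csf3r (lost without library 44), Cxcr2 (kept in 2 of 12), Fpr2 (kept in 4 of 12) and Hdc (lost without library 30). Cxcr2 did not pass with DESeq2 or without the filter on low counts. Fpr2 did not pass without the filter on low counts.

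Ly6g, which encodes the surface antigen used to identify mouse neutrophils, was at 0.541 to 1.62 (median 1.07) CPM at day 5 and 0.0519 to 0.36 (median 0.131) CPM at day 8, and at 0 in all 10 sham ears. It was called lower (log2 change -2.61, SE 0.71, adjusted p = 0.0124), and since the day-8 level is close to 3 counts a library its fitted fold is not a bound. Il1r2, the decoy receptor for IL-1, Mmp9, Hdc (histidine decarboxylase, also a mast cell gene), Fpr2 and the chemokine receptor Cxcr2 completed the 10, with log2 changes from -1.51 for Hdc to -0.73 for Cxcr2. The most abundant members did not pass: S100a8 was 2183 to 3209.8 (median 2530.3) CPM at day 5 and 1976 to 2610.3 (median 2271) CPM at day 8, and the days overlapped (log2 change -0.21, SE 0.52, adjusted p = 0.844). S100a9, its partner in calprotectin, was 2651 to 4025 (median 2997) and 2344 to 3123 (median 2721) CPM (log2 change -0.23, SE 0.52, adjusted p = 0.83). Stressed keratinocytes also make both. Another member, not called, was higher in every day-8 than in every day-5 imiquimod ear, against 10 members lower without overlap (2.86% and 4.16% of all genes). The 14 markers summed to 5218 to 7577 CPM at day 5 and 4437 to 5899 CPM at day 8, a sum that S100a8 and S100a9 dominate. In these bulk samples, fewer cells of a type and less RNA per cell cannot be told apart.

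Genes that came with the neutrophil markers among the 12 with the lowest fold change were Stfa2l1 and Cstdc4, of the stefin A cluster, Nlrp12, an inflammasome regulator of myeloid cells, and Slfn4, of the Schlafen family. Nlrp12 was 4.22 to 9.29 (median 7) CPM at day 5 and 0.57 to 2.43 (median 1.25) CPM at day 8 (log2 change -2.31, SE 0.44, adjusted p = 3.80e-04). Slfn4 was 48.3 to 178 (median 74) CPM at day 5 and 14.9 to 38.8 (median 24.4) CPM at day 8 (log2 change -1.96, SE 0.61, adjusted p = 0.0286). Stfa2l1 was 6.67 to 14.7 (median 9.75) CPM at day 5 and 1.47 to 3.51 (median 2.57) CPM at day 8 (log2 change -1.95, SE 0.61, adjusted p = 0.0314), and Cstdc4 was 3.63 to 7.72 against 0.514 to 1.87 CPM (log2 change -2.10, SE 0.67, adjusted p = 0.0343). Ears of the 2 days did not overlap for any of the 4. In the 12 fits without 1 imiquimod library, the calls that did not always hold were those of Stfa2l1 (kept in 7 of 12), Cstdc4 (kept in 5 of 12) and Slfn4 (kept in 7 of 12). Stfa2l1 and Cstdc4 did not pass with DESeq2 or without the filter on low counts. Slfn4 did not pass without the filter on low counts. Reads of the stefin and Schlafen genes can be split among close copies.

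Of 7 neutrophil chemokines, Cxcl5 and Ppbp were called lower and none higher (list median -0.94). For none of the 7 was the difference from the sham change called. Cxcl5 was 35.1 to 86.3 (median 50.6) CPM at day 5 and 5.13 to 18.6 (median 11.1) CPM at day 8. Every day-8 ear was below every day-5 ear (log2 change -2.29, SE 0.63, adjusted p = 0.0133), 4.88-fold lower in the fit. With DESeq2 it was not called (adjusted p = 0.0622). Ppbp, a CXCR2 ligand that platelets carry, was 1.57 to 3.45 (median 2.65) and 0.208 to 1.28 (median 0.548) CPM (log2 change -1.96, SE 0.44, adjusted p = 0.00223). Cxcl2, another CXCR2 ligand, did not pass, with 30.5 to 93.2 (median 51.7) CPM at day 5 and 18.7 to 43.4 (median 31.7) CPM at day 8 (log2 change -0.85, SE 0.71, adjusted p = 0.483). Cxcl1 was 11.4 to 47.3 (median 19.9) and 9.46 to 18.6 (median 11.9) CPM (adjusted p = 0.213).

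Acute cytokines and enzymes gave 4 lower members of 13 tested and none higher, with a median of -1.15. For none of the 13 was the change called different from that in sham ears (edgeR interaction). Ptgs2, the inducible prostaglandin synthase, was 16.7 to 57.4 (median 25.6) CPM at day 5 and 7.41 to 16.7 (median 10.6) CPM at day 8 (log2 change -1.49, SE 0.44, adjusted p = 0.0212), with 1 day-8 ear just above the lowest day-5 ear. Nos2, inducible nitric oxide synthase, fell from a median of 1.9 CPM at day 5 (lowest 1.27, highest 3.57) to 0.778 CPM at day 8 (lowest 0.44, highest 1.31) (log2 change -1.31, SE 0.39, adjusted p = 0.0203), Tnf by a log2 change of -0.83 and Csf3, which encodes G-CSF, by -1.78, from a median of 1.85 CPM at day 5 (lowest 0.883, highest 4.05) to 0.604 CPM at day 8 (lowest 0.357, highest 0.998). Across fits that leave out 1 of the 12 libraries, the calls that did not always hold were those of Ptgs2 (lost without libraries 30 and 44), Nos2 (lost without libraries 30, 44 and 48), Tnf (lost without library 27) and Csf3 (kept in 2 of 12). Csf3 did not pass with DESeq2 or without the filter on low counts. The count of lower members was 1 without library 30 and 1 without library 44. Il1b was 75.6 to 217 (median 125) CPM at day 5 and 34.5 to 70.8 (median 59.6) CPM at day 8, so that the ears of the 2 days did not overlap. Il1b, the main secreted IL-1, still missed the threshold (log2 change -1.15, SE 0.67, adjusted p = 0.276). Fitted with the 12 imiquimod ears alone it passed (adjusted p = 0.0191), and so did 9 of the 13 genes of this list, all lower. The fit over all 9 groups uses 1 estimate of spread per gene for ears of every group, and its part in the difference was not tested.

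Monocyte markers fell in part and most acute-phase genes fell. Of 9 monocyte markers 4 were lower and none higher (2 without library 30 and 2 without library 44). The change was called lower than in sham ears for 1 of the 9. Ly6c2, a marker of inflammatory monocytes, was 18.8 to 56.8 (median 24.3) and 5.84 to 17.5 (median 11.3) CPM (log2 change -1.33, SE 0.45, adjusted p = 0.0478). Vcan, a proteoglycan that monocytes and fibroblasts make, and Hp, haptoglobin, also fell. The 9 markers summed to 592 to 937 CPM at day 5, 363 to 477 CPM at day 8 and 114 to 148 CPM in day-8 sham ears. Hp, which is counted again among the acute-phase genes below, makes up a large part of this sum. Of 16 macrophage markers, Msr1, a scavenger receptor, was lower (log2 change -0.90, SE 0.27, adjusted p = 0.0259) and none was higher. That share is near the 5.88% of all genes that were lower. Adgre1, which encodes F4/80, was 33.4 to 73.8 (median 50.1) and 41.2 to 58.6 (median 51.5) CPM and Lyz2 245 to 501 (median 415) and 364 to 476 (median 416) CPM, with the days overlapping in both. When each imiquimod library was left out in turn, the calls that did not always hold were those of Ly6c2 (kept in 2 of 12), Vcan (kept in 7 of 12) and Msr1 (kept in 8 of 12). Ly6c2, Vcan and Msr1 did not pass without the filter on low counts.

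Among 10 genes of the acute-phase list 7 were lower and none higher, with a median of -0.82. The change was called lower than in sham ears for 4 of the 10. Saa3 was 192 to 379.6 (median 256) CPM at day 5 and 40.3 to 78.8 (median 45.1) CPM at day 8. Saa3, a serum amyloid A made in inflamed tissue, was 5.31-fold lower (log2 change -2.41, SE 0.49, adjusted p = 7.92e-04), and sham ears held at most 0.569 CPM. Hp was 225 to 351 (median 242) CPM at day 5 and 102 to 159 (median 116) CPM at day 8 (log2 change -1.15, SE 0.23, adjusted p = 5.43e-04). Its change differed from the sham change by -1.39 on the log2 scale (adjusted p = 0.017). Il4ra, Cp (ceruloplasmin), Lbp (lipopolysaccharide-binding protein), Serpina3n and Saa1 were the other members that fell, from -0.40 for Lbp to -1.27 for Saa1. Near-identical copies may share the reads of Saa1. Il4ra, the IL-4 receptor chain, is a cytokine receptor and not an acute-phase protein, though the list counts it. Ptx3 was 14.9 to 46.8 (median 23.4) CPM at day 5 and 4.26 to 7.21 (median 5.25) CPM at day 8. Ptx3, a long pentraxin of the acute response, came down to where its range overlapped that of the day-8 sham ears, 3.8 to 6.7 CPM (log2 change -2.34, SE 0.43, adjusted p = 2.38e-04), and its change differed from the sham change by -2.89 on the log2 scale (adjusted p = 0.00855).

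**Figure D3:**
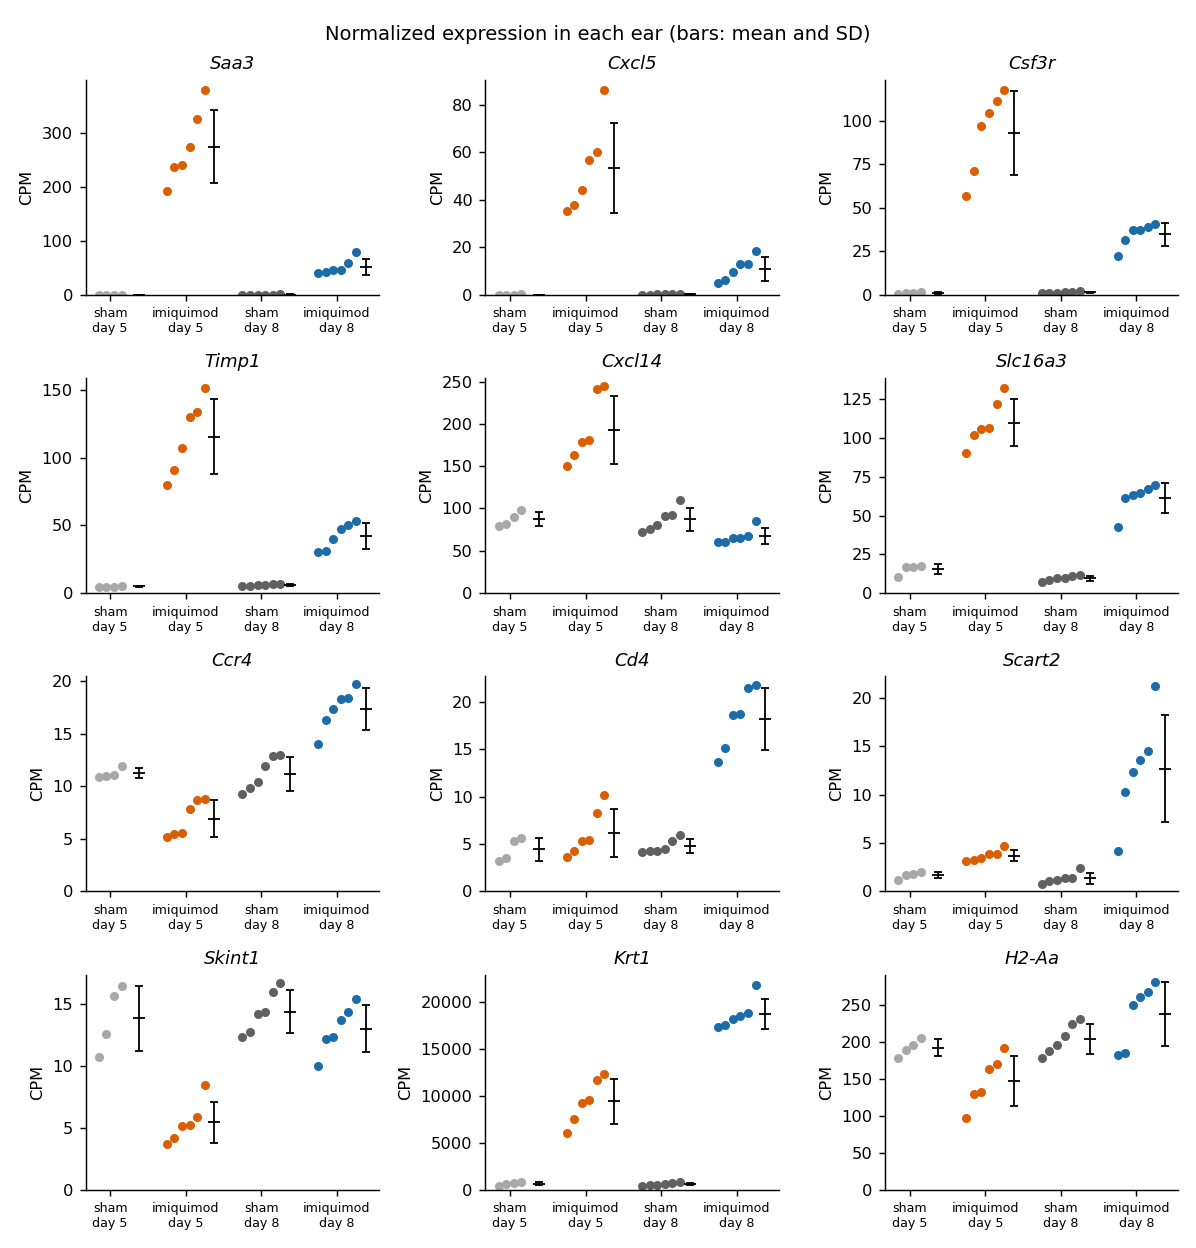
CPM of 12 genes in each ear (points, sorted by value within a group) for sham and imiquimod ears at days 5 and 8, with mean and SD as bars. Saa3, Cxcl5, Csf3r, Timp1, Cxcl14 and Slc16a3 were lower in all day-8 than in all day-5 imiquimod ears, Ccr4, Cd4, Skint1 and Krt1 were higher in all, and Scart2 and H2-Aa overlapped.

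Genes of wound repair and matrix remodelling fell in part, with 8 of 19 lower, none higher and a median of -0.68 (members lower: 5 without library 30 and 6 without library 44). The change was called lower than in sham ears for 1 of the 19. Timp1 was 79.9 to 152 (median 119) CPM at day 5 and 30.2 to 53.3 (median 43.6) CPM at day 8. Timp1, an inhibitor of metalloproteinases, had no overlap between days (log2 change -1.45, SE 0.34, adjusted p = 0.00377). Mmp3, a stromal metalloproteinase, was 59.8 to 97.4 (median 84) and 35 to 49.6 (median 41.2) CPM (log2 change -0.92, SE 0.19, adjusted p = 0.00117), and at day 8 most ears lay below the 46.9 to 73.8 CPM of sham ears. Tnc, tenascin C of provisional matrix, was 776 to 1422 (median 1156) and 495 to 899 (median 639) CPM (log2 change -0.79, SE 0.26, adjusted p = 0.0409), well above sham at both days. Ccn2, a matricellular growth factor, was below the sham ears at day 5 (411 to 476 against 541 to 755 CPM) and fell further to 244 to 327 (median 277) CPM (log2 change -0.68, SE 0.12, adjusted p = 1.29e-04). Adam8, Spp1 (osteopontin), Mmp10 and Tgfb1 were the other 4. Structural collagen did not pass: Col1a1 was 1552 to 2022 (median 1800.1) CPM at day 5 and 1714 to 2214 (median 1798) CPM at day 8 (log2 change 0.10, SE 0.16, adjusted p = 0.761). Of 19 fibroblast and dermal matrix genes, Postn (periostin) and Eln (elastin) rose and Pdgfra fell. Of 15 blood vessel and endothelial activation genes tested, 2 were higher and 1 lower (median -0.08). Selp, the P-selectin with which activated endothelium catches leukocytes, was 21.7 to 45.1 (median 29.6) and 13.4 to 18.3 (median 15.3) CPM (log2 change -0.96, SE 0.22, adjusted p = 0.00238), while the endothelial genes Vwf (0.38) and Cldn5 (0.38) rose. Lyve1 and Pdpn, of lymphatic vessels and, for Pdpn, stressed epithelium and stroma, fell by 0.57 and 0.84 on the log2 scale. They were the 2 called members of 7 lymphatic genes tested (median -0.06). C5ar1, the receptor of the complement fragment C5a, fell from a median of 32.3 CPM at day 5 (lowest 25, highest 50.1) to 14.4 CPM at day 8 (lowest 13.6, highest 19.9) (log2 change -1.13, SE 0.25, adjusted p = 0.00168). Of 11 complement genes tested 2 were lower and none higher (median -0.04). Over the 12 fits with 1 imiquimod library left out, the calls that did not always hold were those of Tnc (kept in 4 of 12), Spp1 (lost without library 30), Tgfb1 (kept in 2 of 12) and Cldn5 (lost without library 48). Tnc did not pass without the filter on low counts. Tgfb1 did not pass without the filter on low counts or with the 12 ears alone.

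Most glycolysis and hypoxia-response genes fell. Of 20 tested, 16 were lower and none higher (5.88% and 5.91% of all genes), though with small changes (median -0.33). Of these, 13 were lower with no overlap between the 2 days (4.16% of all genes). The count of lower members was 13 without library 30 and 10 without library 44. Slc16a3, the lactate exporter MCT4, was 90.2 to 133 (median 106) CPM at day 5 and 42.9 to 69.7 (median 64) CPM at day 8 (log2 change -0.84, SE 0.19, adjusted p = 0.00288), against 7.37 to 11.3 CPM in day-8 sham ears. Ndrg1, a hypoxia-induced gene, was 111 to 190.1 (median 159) and 92.3 to 109.7 (median 100.4) CPM (log2 change -0.65, SE 0.09, adjusted p = 2.26e-06), and here the day-8 ears fell below sham (155 to 193 CPM). Car9, the hypoxia-induced carbonic anhydrase, was 2.54 to 4.08 (median 2.72) and 0.901 to 1.71 (median 1.36) CPM (log2 change -1.16, SE 0.27, adjusted p = 0.00339). The enzyme genes moved by small amounts, with log2 changes of -0.32 for Tpi1, -0.33 for Pgk1, -0.25 for Ldha, -0.22 for Pkm and -0.23 for Gapdh. Slc2a1, the glucose transporter GLUT1, and Vegfa changed by -0.42 and -0.38. In sham ears edgeR called none of the 20 (3 at an unadjusted p under 0.05, 0 called by DESeq2 and 0 by limma voom). The difference between the imiquimod and the sham change was called for 1 of the 20. Of the 18 respiratory chain genes tested, Cox4i1 was higher (0.16) and none lower. Leaving out 1 imiquimod library at a time, the calls that did not always hold were those of Gapdh (kept in 6 of 12), Ldha (lost without libraries 44 and 48), Pkm (lost without library 44), Slc2a1 (kept in 4 of 12) and Vegfa (lost without library 44). Gapdh and Slc2a1 did not pass without the filter on low counts.

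Promoters of a pair of these genes are shown because 16 of the 20 genes fell and hypoxia-inducible factors bind a short core there, written ACGTG and searched on both strands. Each stretch is the 250 bases before the start site, from RefSeq on GRCm38.p6, which is not the build of the count table, and capitals mark the core (CACGT where it lies on the other strand). Car9 lies on the + strand at chr4:43506776-43507025, with 1 match, and Slc16a3 on the + strand at chr11:120948817-120949066, with 2 matches.
Car9: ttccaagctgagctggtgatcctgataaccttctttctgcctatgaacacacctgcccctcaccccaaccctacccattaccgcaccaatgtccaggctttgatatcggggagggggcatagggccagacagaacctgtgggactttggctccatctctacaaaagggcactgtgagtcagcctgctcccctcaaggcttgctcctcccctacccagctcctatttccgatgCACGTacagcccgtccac
Slc16a3: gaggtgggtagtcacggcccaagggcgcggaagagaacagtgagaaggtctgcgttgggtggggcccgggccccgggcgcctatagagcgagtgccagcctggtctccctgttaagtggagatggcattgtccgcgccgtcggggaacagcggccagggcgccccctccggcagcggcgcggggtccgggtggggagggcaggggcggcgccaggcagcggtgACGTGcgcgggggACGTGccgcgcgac
Of the 20 tested genes of the list, 18 had a promoter in the table and 12 of these held the core in at least 1 of their promoters. Of all 32851 promoters of the same length, 16.6% held it, and of the 12838 tested genes with such a promoter 23.4% held it in at least 1. A match is a description of the letters and not a bound site.

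In the epidermis, genes of the basal layer and of attachment to the basement membrane fell by small amounts: 8 of 13 were lower and none higher (median -0.25). In sham ears the list had a median of -0.18 with 1 member called lower and 5 at an unadjusted p under 0.05. For no member was the change called lower than in sham ears, and for 1 it was called higher (edgeR interaction). Itga3, an integrin that binds laminin, was 200.1 to 274 (median 224) and 129.8 to 172 (median 135) CPM (log2 change -0.69, SE 0.12, adjusted p = 7.44e-05) with no overlap. The laminin chain gene Lama3 (-0.52), the hemidesmosome integrin Itgb4 (-0.37) and basal keratin Krt14 (-0.30) were among the others, whereas Krt5 did not pass (log2 change -0.04, SE 0.05, adjusted p = 0.664). Krt1 and Krt10, the keratins of the suprabasal layers, rose. Krt1 was 6018 to 12331 (median 9409.8) CPM at day 5 and 17308 to 21805 (median 18335) CPM at day 8. The days did not overlap (log2 change 0.99, SE 0.16, adjusted p = 4.94e-05), and sham ears held 449 to 869.9 CPM at day 8. Krt10 was 6532 to 13649 (median 8345) CPM at day 5 and 14297 to 18994 (median 15069) CPM at day 8, the sham ears of day 8 lying at 11201 to 12783 CPM (log2 change 0.79, SE 0.15, adjusted p = 3.74e-04). Of the 24 suprabasal and cornified envelope genes tested, 4 were higher and Tgm3, an epidermal transglutaminase, was lower. Dsc1 and Dsg1a, desmosomal cadherins of upper layers, were the other 2 that rose (0.32 and 0.32). The count of higher members was 2 without library 30 and 2 without library 44. In the 12 fits without 1 imiquimod library, the calls that did not always hold were those of Dsc1 (kept in 6 of 12), Dsg1a (kept in 5 of 12) and Tgm3 (lost without libraries 30 and 48). Dsc1 and Tgm3 did not pass without the filter on low counts. Dsg1a did not pass without the filter on low counts, with relative log expression scaling or with the 12 ears alone. Flg, filaggrin, did not pass, with 797 to 1820.1 (median 1021) and 1626 to 2469 (median 1761) CPM (log2 change 0.70, SE 0.25, adjusted p = 0.0622). It was called higher with limma voom (adjusted p = 0.00574), with the 12 ears alone (adjusted p = 0.0344) and without library 28.

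Stress keratins of injured epidermis lay lower at day 8 without passing. Krt6a was 7002 to 10777 (median 8776) CPM at day 5 and 3226 to 5433 (median 4387) CPM at day 8, and although the days did not overlap the test missed the threshold (log2 change -1.03, SE 0.45, adjusted p = 0.126). Fitted with the 12 imiquimod ears alone it passed (adjusted p = 0.00111). Krt6b was 6719.8 to 9215 (median 8140.3) and 3136 to 4847 (median 3866) CPM (adjusted p = 0.409, and 2.01e-04 with the 12 ears alone), and Krt16 5904 to 8057 (median 7343) and 4629 to 6172 (median 5409) CPM with overlap (adjusted p = 0.569, and 0.00335 with the 12 ears alone). Of the 18 stress keratin and activation genes tested, 1 was lower and 1 higher over all groups, against 8 lower and 1 higher with the 12 ears alone. The lower one was no keratin but Tgm1, a transglutaminase of the cornified envelope. Its log2 change was -0.60 to -0.46 over the 12 fits without 1 imiquimod library, and it was called in each. The higher one was Ivl, involucrin of the cornified envelope, at 60 to 95.9 (median 76.9) and 98.8 to 163 (median 113) CPM (log2 change 0.63, SE 0.15, adjusted p = 0.0032). At day 8 Krt6a, Krt6b and Krt16 remained far above the sham ears, where Krt16 was 13.5 to 23 CPM.

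Several epithelial signals fell, most of them toward the sham level, while others rose. Of 13 IL-36, IL-20 and epithelial alarm cytokine genes tested, 3 were higher and 2 lower (median 0.20, sham ears -0.04). Cxcl14 was 149.6 to 245 (median 179.8) CPM at day 5 and 60.2 to 85.1 (median 65.1) CPM at day 8. Cxcl14, a chemokine that resting epithelium makes, was above sham at day 5 (79.8 to 97.8 CPM) and within or below the sham range at day 8 (72.5 to 110.3 CPM), and the change was among the 10 with the smallest p (log2 change -1.52, SE 0.18, adjusted p = 5.27e-07). It differed from the sham change by -1.51 on the log2 scale (adjusted p = 0.00133). Il33 was 257 to 367 (median 322) CPM at day 5 and 96.5 to 163 (median 131) CPM at day 8. Il33, an alarmin kept in epithelial nuclei, fell without overlap (log2 change -1.27, SE 0.21, adjusted p = 7.34e-05) to near the sham level of 85.3 to 124 CPM. Il24, of the IL-20 family, fell from a median of 4.14 CPM at day 5 (lowest 2.45, highest 8.7) to 0.682 CPM at day 8 (lowest 0.294, highest 0.929) (log2 change -2.88, SE 0.95, adjusted p = 0.0411) and was at 0 in every sham ear. Across fits that leave out 1 of the 12 libraries, the calls that did not always hold were those of Il24 (kept in 3 of 12), Il36rn (kept in 5 of 12) and Il20rb (kept in 2 of 12). Il24 did not pass with DESeq2 or without the filter on low counts. Il36rn and Il20rb did not pass without the filter on low counts, with relative log expression scaling or with the 12 ears alone. Il36b rose (log2 change 0.51, SE 0.13, adjusted p = 0.00851), as did Il36rn, the IL-36 receptor antagonist (0.37), while Il36a and Il36g did not pass. Il20rb was also called higher, by 0.26 to 0.40 on the log2 scale over the fits without 1 imiquimod library. Krt24, a keratin of differentiated epithelium, went on falling from a high sham level of 326 to 469 CPM: Krt24 was 6.84 to 34.7 (median 10.9) CPM at day 5 and 1.21 to 3.6 (median 2.78) CPM at day 8 (log2 change -2.67, SE 0.46, adjusted p = 1.31e-04). Fgf23, a hormone-like growth factor, fell from a median of 9.58 CPM at day 5 (lowest 3.35, highest 14.6) to 0.974 CPM at day 8 (lowest 0.495, highest 2.34) (log2 change -2.77, SE 0.68, adjusted p = 0.00544), with sham ears at or near 0. The metallothionein genes Mt1 and Mt2, which bind zinc and copper, fell by 0.74 and 0.82 on the log2 scale. Tfrc, the transferrin receptor of dividing and iron-demanding cells, was 164 to 175 (median 166) and 109.8 to 124 (median 119) CPM (log2 change -0.50, SE 0.07, adjusted p = 1.15e-06) and stayed above the sham ears (53 to 63.4 CPM at day 8).

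Several T cell transcripts climbed, while lists of T cell genes were mixed. Of 13 regulatory T cell and checkpoint genes tested, 2 were higher and 1 lower (median 0.21, sham ears 0.10). The lower one was Havcr2, with log2 changes of -0.70 to -0.50 over the fits without 1 imiquimod library. Cd4 was 3.66 to 10.2 (median 5.36) CPM at day 5 and 13.7 to 21.8 (median 18.7) CPM at day 8. Cd4, the co-receptor of helper T cells that some myeloid cells also carry, did not overlap between days (log2 change 1.56, SE 0.21, adjusted p = 1.76e-06), and sham ears lay at 3.26 to 5.65 CPM at day 5 and 4.19 to 6 CPM at day 8. Ccr4 was 5.17 to 8.83 (median 6.69) CPM at day 5 and 14 to 19.7 (median 17.8) CPM at day 8. Ccr4, a skin-homing receptor of helper and regulatory T cells, had, with Ids, the smallest adjusted p of the named genes (log2 change 1.32, SE 0.14, adjusted p = 1.42e-08), and it moved from below the sham ears (10.9 to 11.9 CPM at day 5) to above them (9.25 to 13 CPM at day 8). The difference from the sham change was 1.32 on the log2 scale (adjusted p = 1.21e-04) for Ccr4 and 1.47 on the log2 scale (adjusted p = 0.00595) for Cd4. Icos, a costimulatory receptor of activated T cells, was 1.33 to 4.43 (median 2.39) and 2.86 to 7.34 (median 5.57) CPM (log2 change 0.99, SE 0.29, adjusted p = 0.0173). Cxcr6, a receptor of tissue-resident T cells, was 1.48 to 2.97 (median 1.81) and 0.807 to 7.27 (median 5.19) CPM (log2 change 1.26, SE 0.31, adjusted p = 0.00517), with library 44 at 0.807 CPM below all day-5 ears. Foxp3, the regulatory T cell factor, was 1.37 to 3.73 (median 2.35) and 3.43 to 5.14 (median 4.3) CPM and did not pass (log2 change 0.78, SE 0.38, adjusted p = 0.18), although it did with limma voom (adjusted p = 0.015) and with the 12 ears alone (adjusted p = 0.0222). When each imiquimod library was left out in turn, the calls that did not always hold were those of Icos (lost without libraries 29 and 48) and Havcr2 (lost without library 30).

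Of 12 tested T cell and cytotoxic markers (17 listed), Cd4, Cd3d and Trac were higher and Gzma and Prf1 lower. The list median was 0.04 under imiquimod and 0.05 in sham ears. Cd3d, a chain of the T cell receptor complex, was 0.406 to 0.787 (median 0.706) and 1.26 to 2.22 (median 2) CPM (log2 change 1.49, SE 0.27, adjusted p = 1.58e-04), and the day-8 ears overlapped the sham range of 1.67 to 2.78 CPM. Its partners did not pass: Cd3e was 2.01 to 4.03 (median 3.6) and 2.25 to 5.42 (median 3.72) CPM and Cd3g 2.45 to 4.11 (median 3.22) and 2.43 to 5.06 (median 4.03) CPM, and both were below every sham ear (11.6 to 14.5 CPM for Cd3e at day 8). Gzma, granzyme A of cytotoxic cells, fell from a median of 1.62 CPM at day 5 (lowest 0.785, highest 4.11) to 0.406 CPM at day 8 (lowest 0.135, highest 0.661) (log2 change -2.24, SE 0.50, adjusted p = 0.00192), and Prf1, perforin, by a log2 change of -0.84. Cd8a, Cd8b1 and 3 other listed genes were not among the tested genes. Ighm, the heavy chain of IgM, was 5.64 to 13 (median 7.21) and 14.9 to 21.7 (median 19.1) CPM (log2 change 1.19, SE 0.16, adjusted p = 2.26e-06) without overlap. Of the 9 tested B and plasma cell genes it alone was higher, and Xbp1, a factor of plasma cells and of secretory cells in general, was lower (-0.23), while 11 of the 20 listed B and plasma cell genes, Cd79a and Jchain among them, were not among the tested genes. Cxcl13, a chemokine that draws B cells and follicular helper T cells, was 1.32 to 6.7 (median 5.49) and 7.58 to 21.6 (median 11.2) CPM (log2 change 1.47, SE 0.28, adjusted p = 3.62e-04). Ccl8 also rose (0.72), whereas Ccl2, the main monocyte chemokine, fell from a median of 18.5 CPM at day 5 (lowest 10.6, highest 21.4) to 9.03 CPM at day 8 (lowest 7.43, highest 9.84) (log2 change -0.99, SE 0.32, adjusted p = 0.0359). Ccl24 fell too, by -1.50 to -0.96 on the log2 scale over the fits without 1 imiquimod library. Of 14 monocyte and lymphocyte chemokines tested, 2 were higher and 2 lower (median -0.05, sham ears 0.68). The change was called lower than in sham ears for 3 of the 14. Over the 12 fits with 1 imiquimod library left out, the calls that did not always hold were those of Prf1 (kept in 6 of 12), Trac (lost without library 48), Ccl8 (lost without libraries 26, 28 and 45), Ccl2 (kept in 2 of 12) and Ccl24 (kept in 8 of 12). Prf1 did not pass with limma voom or with the 12 ears alone. Ccl8 and Ccl2 did not pass without the filter on low counts. Ccl24 did not pass without the filter on low counts or with limma voom.

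Genes tied to gamma delta T cells and to their epidermal niche did not move one way. Of 10 tested genes linked to the IL-17-making type, Scart2 and Sox13 were higher and Zbtb16, a factor of innate-like T cells and a glucocorticoid target, was lower, with a list median of -0.03. Of 8 linked to the epidermal type, Skint1 and Itgae were higher and none lower, yet the median was -0.41 (sham ears 0.01). Scart2, a scavenger receptor gene found on gamma delta T cells that make IL-17, was 3.13 to 4.68 (median 3.64) CPM at day 5 and 4.18 to 21.2 (median 13) CPM at day 8. In 5 of the 6 day-8 ears it lay above all day-5 ears, with library 44 at 4.18 CPM inside their range (log2 change 1.78, SE 0.25, adjusted p = 2.26e-06). Sox13, a transcription factor of the same lineage and of other cells, rose (log2 change 0.55, SE 0.10, adjusted p = 1.63e-04). Trdc, the delta chain constant region, was 4.63 to 19.1 (median 6.02) and 4.33 to 6.26 (median 5.42) CPM (log2 change -0.67, SE 0.24, adjusted p = 0.0618). It was called lower with DESeq2 (adjusted p = 0.0242) and without library 25, 26, 27 or 28, and without library 29 its change was -0.27. Trgc1 was 1.53 to 2.01 (median 1.77) and 1.62 to 3.21 (median 1.97) CPM, below every sham ear. Itgae, the CD103 integrin that holds T cells and Langerhans-type cells in epithelium, was 2.6 to 4.32 (median 3.43) and 5.65 to 11.4 (median 7.54) CPM (log2 change 1.20, SE 0.16, adjusted p = 1.83e-06), from below every sham ear to around their level (6.84 to 7.39 CPM at day 8).

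Skint1, an immunoglobulin-family gene of keratinocytes needed for the epidermal gamma delta T cells, was 3.71 to 8.49 (median 5.18) CPM at day 5 and 10 to 15.4 (median 13) CPM at day 8 (log2 change 1.25, SE 0.15, adjusted p = 1.36e-07). The days did not overlap, and the day-8 ears overlapped the range of the sham ears (10.8 to 16.4 CPM at day 5, 12.3 to 16.7 at day 8). Of the 11 family members tested, 5 were higher and none lower, with a median of 0.49 against -0.08 in sham ears. Skint10 was 4.11 to 7.92 (median 7.15) and 8.56 to 14.8 (median 10.2) CPM (log2 change 0.74, SE 0.18, adjusted p = 0.00407). Skint8 and Skint2 rose at low levels, Skint8 from a median of 0.34 CPM at day 5 (lowest 0.294, highest 0.443) to 0.953 CPM at day 8 (lowest 0.415, highest 1.61) and Skint2 from a median of 0.147 CPM at day 5 (lowest 0, highest 0.437) to 0.78 CPM at day 8 (lowest 0.5, highest 1.43). Skint11 changed by 0.49 on the log2 scale. The members are close copies, so reads may be split among them. Leaving out 1 imiquimod library at a time, the call that did not always hold was that of Skint11 (lost without libraries 30, 44 and 45). Skint11 did not pass with limma voom.

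MHC class II transcripts, which present antigen to helper T cells, rose. Of 19 tested genes of the interferon gamma and antigen presentation list 5 were higher and none lower: H2-Aa, H2-Ab1, H2-Eb1, Cd74, the invariant chain, and Ciita, the class II transactivator. H2-Aa was 96.8 to 191 (median 147) CPM at day 5 and 182 to 281 (median 255) CPM at day 8 (log2 change 0.69, SE 0.13, adjusted p = 3.80e-04). Only the 2 lowest day-8 ears reached into the day-5 range, and the sham ears lay at 177 to 205 CPM at day 5 and 178 to 231 CPM at day 8. The list's median was 0.26 under imiquimod and 0.19 in sham ears, and for no member was the change called different from the sham change by edgeR. Cd74 was 229 to 444 (median 364) CPM at day 5 and 432 to 618 (median 558) CPM at day 8 (log2 change 0.57, SE 0.12, adjusted p = 9.95e-04). Mgl2 and Clec10a, lectins of dermal dendritic cells and macrophages, rose by 0.60 and 0.38, and Zbtb46, a dendritic cell factor, by 0.52. Cd207, langerin, was 5.79 to 12 (median 8.15) and 5.5 to 9.91 (median 7.36) CPM and did not pass. Fscn1, a gene of mature dendritic cells and of other cells, fell (-0.60). In the 12 fits without 1 imiquimod library, the calls that did not always hold were those of Ciita (kept in 8 of 12) and Clec10a (kept in 5 of 12). Ciita did not pass without the filter on low counts. Clec10a did not pass without the filter on low counts or with relative log expression scaling.

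Class II genes carry a Y box near their start, an inverted CCAAT element of the module on which CIITA acts, and the promoters of a pair of the called genes are shown for it. The letters searched were CTGATTGG on both strands, in the 250 bases before the start, from RefSeq on GRCm38.p6, and capitals mark the match, which begins 51 bases before the start in H2-Aa and 62 in H2-Eb1. H2-Aa lies on the - strand at chr17:34287824-34288073 and H2-Eb1 on the + strand at chr17:34305617-34305866.
H2-Aa: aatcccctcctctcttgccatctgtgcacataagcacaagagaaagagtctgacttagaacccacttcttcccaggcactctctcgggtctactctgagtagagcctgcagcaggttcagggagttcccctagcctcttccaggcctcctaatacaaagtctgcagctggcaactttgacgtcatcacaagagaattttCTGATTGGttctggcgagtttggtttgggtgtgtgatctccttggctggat
H2-Eb1: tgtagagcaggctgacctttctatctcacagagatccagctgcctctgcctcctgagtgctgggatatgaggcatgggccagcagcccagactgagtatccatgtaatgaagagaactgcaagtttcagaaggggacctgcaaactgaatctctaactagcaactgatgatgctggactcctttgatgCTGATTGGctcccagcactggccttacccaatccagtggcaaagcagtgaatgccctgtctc
Of the 14 tested genes of that list with a promoter in the table, 6 held the letters in at least 1 promoter, and of all promoters of that length 3.83% did. Of all tested genes with a promoter, 5.83% did in at least 1.

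Other genes among the 12 with the largest increases or the 10 smallest p-values had no single theme. Kif26b, a kinesin-like gene, was 3.71 to 6.35 (median 4.33) and 6.71 to 16 (median 10.9) CPM (log2 change 1.27, SE 0.15, adjusted p = 6.63e-08) while sham ears lay at 4.53 to 6.11 CPM at day 5 and 3.41 to 4.81 CPM at day 8, and its change differed from the sham change by 1.64 on the log2 scale (adjusted p = 7.20e-06). Barx2, a homeobox gene of epithelia, rose from a median of 36.2 CPM at day 5 (lowest 31.4, highest 47.2) to 68.4 CPM at day 8 (lowest 65.4, highest 74.6) (log2 change 0.88, SE 0.10, adjusted p = 7.72e-08), and Foxc2, a forkhead gene, from a median of 17.6 CPM at day 5 (lowest 15.2, highest 27.1) to 39.1 CPM at day 8 (lowest 31.9, highest 42.2) (log2 change 0.96, SE 0.13, adjusted p = 1.15e-06). Both were already above sham at day 5 and moved farther from it. Ids, a lysosomal sulfatase, rose by a small step, from a median of 88.5 CPM at day 5 (lowest 79.6, highest 100.2) to 132 CPM at day 8 (lowest 112, highest 134) (log2 change 0.52, SE 0.06, adjusted p = 1.42e-08). Lrrc15, a gene of activated fibroblasts, was 2.65 to 5.64 (median 3.68) and 7.93 to 13.1 (median 9.38) CPM (log2 change 1.26, SE 0.23, adjusted p = 2.40e-04). Padi1, an epidermal arginine deiminase, was 1.05 to 3.14 (median 1.27) and 2.79 to 5.29 (median 4.03) CPM (log2 change 1.35, SE 0.28, adjusted p = 7.75e-04), and Gsdmc2, a gasdermin, 3.46 to 9.35 (median 6.27) and 8.96 to 17.5 (median 15.7) CPM (log2 change 1.23, SE 0.40, adjusted p = 0.0347). Krtap16-3, a hair protein gene, was at 0 in 4 of 6 day-5 ears and 8.45 to 18.7 (median 12.7) CPM at day 8 (log2 change 2.77, SE 0.89, adjusted p = 0.0343). It was not at 0 in the remaining day-5 ears. Its log2 change was 2.49 to 4.29 over the fits without 1 imiquimod library and reached 6.56 under another setting, so its size is uncertain. Across fits that leave out 1 of the 12 libraries, the calls that did not always hold were those of Krtap16-3 (kept in 5 of 12) and Gsdmc2 (kept in 4 of 12). Krtap16-3 did not pass with DESeq2, without the filter on low counts, with limma voom or with the 12 ears alone. Gsdmc2 did not pass with DESeq2 or without the filter on low counts.

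The genes with the smallest p of the difference from the sham change were chosen for that difference, which favours opposite changes. Over all genes, 8 were called higher under imiquimod and lower in sham ears, and 6 the reverse. Cyp26b1, which breaks down retinoic acid, was 160.1 to 227 (median 185) CPM and 110.5 to 133 (median 119.8) CPM under imiquimod (log2 change -0.65, SE 0.07, adjusted p = 1.99e-08) against 223 to 264 CPM at day 5 and 266 to 309.9 CPM at day 8 in sham ears, and it had the smallest p of the difference, -0.89 on the log2 scale (adjusted p = 7.80e-07). Fgf7, the keratinocyte growth factor, fell from a median of 23.9 CPM at day 5 (lowest 20.6, highest 26.8) to 15.2 CPM at day 8 (lowest 14.1, highest 18) while it rose in sham ears (log2 change 0.39, adjusted p = 0.0379). Srpx and Nfatc4 fell under imiquimod (-0.38 and -0.31) and rose in sham ears (0.37 and 0.26). Robo1, Celsr2, Pla2g4f and Itpr2 rose under imiquimod (0.43, 0.14, 0.33 and 0.25) and fell in sham ears (-0.31, -0.32, -0.34 and -0.20). When each imiquimod library was left out in turn, the call that did not always hold was that of Celsr2 (kept in 4 of 12). Celsr2 did not pass with DESeq2, without the filter on low counts or with relative log expression scaling.

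In other parts of the response few genes passed between the days. Of 15 genes of the IL-17 and IL-23 axis, Il17ra and Il1r1 were lower and none higher (median -0.41, sham ears 0.15). The 15 genes summed to 342 to 399 CPM at day 5 and 322 to 333 CPM at day 8, without overlap. Il17a, a cytokine of the axis, was 0.203 to 1.92 (median 0.941) CPM at day 5 and 0.367 to 1.35 (median 0.678) CPM at day 8 (log2 change -0.41, SE 0.54, adjusted p = 0.686), and Il17f 3.6 to 9.67 (median 6.95) and 3 to 7.41 (median 5.29) CPM (log2 change -0.42, SE 0.42, adjusted p = 0.566), with the days overlapping in both. Il22 was 3.71 to 7.67 (median 4.49) and 1 to 4.07 (median 2.59) CPM (log2 change -0.98, SE 0.47, adjusted p = 0.178), and it passed with the 12 ears alone (adjusted p = 0.018). Il23a was 0.394 to 1.46 and 0.44 to 1.07 CPM, Ccr6 0.432 to 1.33 and 0.786 to 2.21 CPM and its ligand Ccl20 1.78 to 16.5 and 1.29 to 8.29 CPM, with adjusted p = 0.7, 0.416 and 0.352. The receptor Il17ra did fall, from a median of 66 CPM at day 5 (lowest 53, highest 75.2) to 45.4 CPM at day 8 (lowest 43.6, highest 50.1) (log2 change -0.50, SE 0.08, adjusted p = 6.36e-05). Of 11 antimicrobial peptide genes, Slpi (-0.92) and Pglyrp1 (-0.90) were lower (1 without library 30 and 2 without library 44), against 7 lower of 10 with the 12 ears alone. The list median was -0.72 (sham ears 0.16), and the 11 genes summed to 243 to 350 CPM at day 5 and 181 to 193 CPM at day 8. Over the 12 fits with 1 imiquimod library left out, the call that did not always hold was that of Pglyrp1 (lost without libraries 30 and 45).

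Type I interferon genes showed 1 call, with Ifit2 higher among 22 tested, none lower and a median of 0.09. Ifit1 was 3.48 to 16.2 (median 7.24) and 4.99 to 15.1 (median 9.34) CPM (log2 change 0.22, SE 0.39, adjusted p = 0.776). Of 18 DNA replication genes Pcna was lower (-0.16), and of 18 mitosis genes none was called by edgeR over all groups (2 at an unadjusted p under 0.05, 7 lower with the 12 ears alone, 2 with limma, none with DESeq2). Top2a, a topoisomerase of dividing cells, was 217 to 254 (median 234) and 171 to 232 (median 204) CPM (log2 change -0.20, SE 0.12, adjusted p = 0.283, and 0.0323 with the 12 ears alone), and Mki67 229 to 278 (median 232) and 193 to 264 (median 239.6) CPM, both far above the sham ears. Arg1, arginase 1, was 16.6 to 35.3 (median 23.6) and 24.1 to 44.7 (median 30.2) CPM (log2 change 0.37, SE 0.20, adjusted p = 0.237), and Adipoq, of fat cells, 11.9 to 18.7 (median 14.2) and 12.4 to 18.8 (median 16.9) CPM (log2 change 0.15, SE 0.14, adjusted p = 0.554). Chil4, a chitinase-like gene of alternative activation, rose from a median of 0.185 CPM at day 5 (lowest 0.054, highest 1.23) to 1.95 CPM at day 8 (lowest 0.954, highest 3.27), a fitted fold that is no bound because several day-5 ears were below 3 counts (log2 change 2.50, SE 0.79, adjusted p = 0.0349). Leaving out 1 imiquimod library at a time, the calls that did not always hold were those of Chil4 (kept in 4 of 12), Pcna (kept in 4 of 12) and Ifit2 (lost without library 46). Chil4 did not pass with DESeq2 or without the filter on low counts. Pcna did not pass without the filter on low counts. Ifit2 did not pass without the filter on low counts or with the 12 ears alone.

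**Figure D4:**
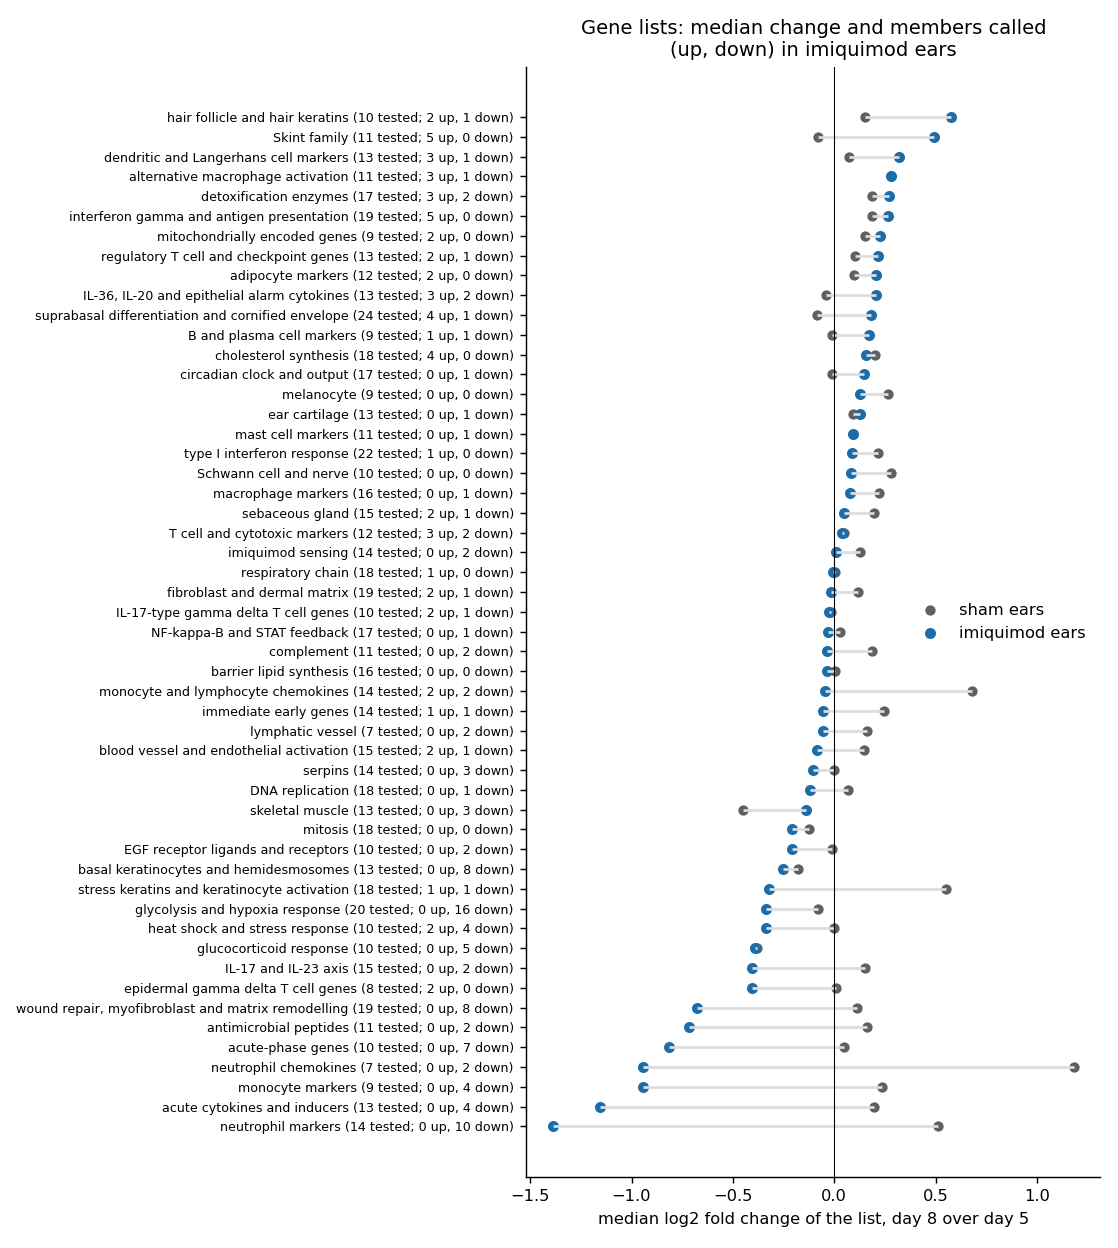
Median log2 fold change of day 8 over day 5 for each gene list with at least 7 tested genes, in imiquimod ears (blue) and sham ears (grey), with tested members and members called up or down in imiquimod ears beside the name. Neutrophil markers (-1.39, 10 of 14 lower) lie at the bottom, and sham medians of lists near 0 CPM in sham ears, such as the neutrophil chemokines, rest on very few counts.

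Some genes fell in sham ears too. Of 10 glucocorticoid-response genes 5 were lower under imiquimod and 5 in sham ears, and these need not be the same genes. The change was called higher than in sham ears for 2 of the 10 and lower for 2 (edgeR interaction). For the metallothionein genes Mt1 and Mt2 the imiquimod change minus the sham change was -0.62 and -0.61 on the log2 scale. Fkbp5 was 36.7 to 69.3 (median 53) and 24.7 to 36.5 (median 30.7) CPM under imiquimod (log2 change -0.79, SE 0.13, adjusted p = 7.32e-05) and 67.3 to 79.5 CPM at day 5 and 38.2 to 56.5 CPM at day 8 in sham ears (log2 change -0.65, adjusted p = 0.00622). Klf9 changed by -0.45 and -0.55, and Zbtb16 by -1.20 and -0.62. Tsc22d3, another glucocorticoid target, and the clock gene Per1 fell in sham ears (-1.12 and -1.11) and did not pass under imiquimod (-0.28 and -0.33). Their imiquimod change minus the sham change was 0.84 and 0.77, and both differences were called. Hour of sampling, handling and treatment day cannot be told apart for these genes. Markers of fast muscle fibres, Myh4 (-0.89), Actn3 (-1.16) and Pvalb (-1.11), were lower under imiquimod and lay at -0.82, -0.59 and -0.63 in sham ears. Actn3 did not pass with limma voom (adjusted p = 0.0827). In sham ears 12 of the 13 muscle genes had an unadjusted p under 0.05 and edgeR called none (DESeq2 3, limma voom 4). Under imiquimod the 13 genes summed to 2055 to 3298 CPM at day 5 and 2185 to 3393 CPM at day 8. Red cell genes, the globins among them being near-identical copies, were lower in 4 of 6 (median -0.84, 3 without library 30 and 2 without library 44) and summed to 323 to 634 CPM at day 5 and 149.8 to 371 CPM at day 8. The part of muscle and blood in the punch in other changes was not tested.

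Other lists of tissue parts, stress and metabolism were mixed. The 4 cholesterol synthesis and transport genes that rose of 18 were Stard4, Mvk, Fdft1 and Mvd (median 0.16, 9 of 18 with the 12 ears alone), and sham ears had a median of 0.20. Barrier lipid, Schwann cell and melanocyte lists (16, 10 and 9 tested genes) had no called member over all groups, and 1, 1 and 1 with the 12 ears alone, where edgeR was used in both. At an unadjusted p under 0.05 over all groups they had 1, 2 and 3, DESeq2 called 0 in each, and limma voom called 1, 0 and 1. Of 10 heat shock and stress genes, 2 were higher and 4 lower (median -0.34). The chaperones of the endoplasmic reticulum Hspa5 and Hsp90b1 fell (-0.34 and -0.34), while the near-identical copies Hspa1a and Hspa1b rose (0.25 and 0.26). Socs3, a feedback inhibitor of STAT3 signalling, was 114 to 221 (median 157) and 75 to 91 (median 83.7) CPM (log2 change -0.95, SE 0.22, adjusted p = 0.00299), the 1 called gene of 17 feedback genes. The EGF receptor gene Egfr and its ligand Tgfa fell (-0.24 and -0.52). Myd88, the adaptor of Toll-like receptors, fell (-0.29). Adrb3, the fat cell adrenergic receptor, rose from a median of 0.605 CPM at day 5 (lowest 0.378, highest 0.812) to 1.79 CPM at day 8 (lowest 1.22, highest 2.14) (log2 change 1.48, SE 0.26, adjusted p = 1.24e-04), and of 17 detoxification enzymes 3 were higher and 2 lower, among which Aldh3a1 rose (0.68) and Cyp1b1 fell (-0.73). In the 12 fits without 1 imiquimod library, the calls that did not always hold were those of Mvd (kept in 5 of 12), Fdft1 (kept in 4 of 12), Hspa1a (kept in 5 of 12), Tgfa (kept in 7 of 12) and Myd88 (kept in 7 of 12). Mvd, Fdft1 and Hspa1a did not pass without the filter on low counts or with relative log expression scaling. Tgfa and Myd88 did not pass without the filter on low counts.

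Genes were also grouped by their response in libraries outside the 12, to ask whether what imiquimod raised elsewhere fell between these days. Imiquimod ears of day 2, none of which enter the comparison, had 1202 genes raised at least 2-fold over day-2 sham ears and 753 lowered. Of the raised genes, 167 fell from day 5 to day 8 (13.9%) and 20 rose (1.66%), against 5.88% and 5.91% of all tested genes, and their median change was -0.21. Of the lowered genes, 52 rose (6.91%) and 14 fell (1.86%), with a median of 0.21. For genes lowered at day 2 by a log2 change of 2 or more the median was 0.0148, with 3 higher and 4 lower. The separate experiment, with ears of day 8 under the same imiquimod schedule, raised 2166 of the tested genes at least 2-fold over its own sham ears, and of these 280 fell (12.9%) and 79 rose (3.65%), with a median of -0.15. It lowered 3135, of which 198 rose (6.32%) and 96 fell (3.06%). Without library 30, the falling genes were 89 of those raised at day 2 and 143 of those raised in the separate experiment. They were 111 and 175 without library 44, and 108 and 176 without library 48. Of the genes lowered at day 2, 32 without library 30 rose, and the falling ones were 9 without library 28, 9 without library 46, 9 without library 47 and 9 without library 49. In the separate experiment, the raised genes that rose were 52 without library 29 and 52 without library 45, and the lowered genes that rose were 130 without library 25, 105 without library 30 and 126 without library 48.

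**Figure D5:**
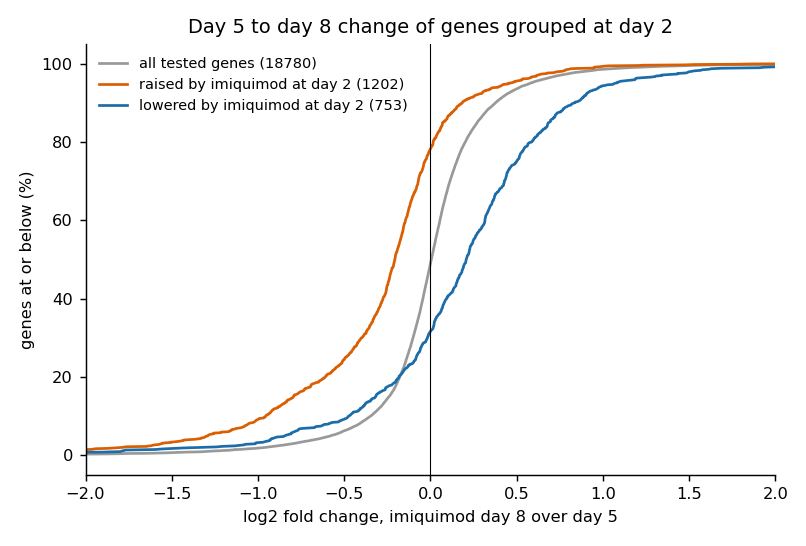
Cumulative share of genes (y axis, percent) by log2 fold change of day 8 over day 5 in imiquimod ears (x axis, shown from -2 to 2), for all tested genes and for genes raised or lowered at least 2-fold at day 2 in other ears. The raised genes lie to the left of all genes (median -0.21) and the lowered genes to the right (median 0.21, but 0.0148 for those lowered by a log2 change of 2 or more).

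Ears that received the CCR6 inhibitor under the same imiquimod schedule changed differently between the days for 377 genes with a higher and 526 with a lower change without the drug (4.81% of the genes). These counts depend on single ears: without drug day 8 library 53 they were 64 and 59, without drug day 5 library 32 they were 80 and 122, and without imiquimod library 30 they were 83 and 111. Without drug day 5 library 36 they were 883 and 1185. Other libraries that moved the higher count by over 1.5 times gave 163 without library 25, 580 without library 28, 173 without library 44, 233 without library 48, 200 without library 31, 232 without library 34, 241 without library 35, 667 without library 51 and 131 without library 55. For the lower count these were 280 without library 25, 225 without library 44, 282 without library 31, 311 without library 34, 905 without library 51 and 178 without library 55. Fitted with the 4 groups alone they were 59 and 79. Skint1 rose without the drug and lay at 8.66 to 16.9 (median 14.5) and 10.6 to 18.1 (median 13.6) CPM with it, a difference between the changes of 1.24 (adjusted p = 7.48e-04) on the log2 scale. Cxcl14 fell without the drug and lay at 47.6 to 128 (median 73.9) and 62.5 to 119.8 (median 66.3) CPM with it, a difference of -1.53 (adjusted p = 9.94e-04). Saa3 was 9.68 to 167 (median 31.7) and 13.7 to 127 (median 41.3) CPM with the drug, a difference of -2.54 (adjusted p = 0.0249). For Cd4 the changes were 1.56 without and 1.44 with the drug, and their difference did not pass (adjusted p = 0.855).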

How the data were processed

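RNA of 82 ear punches was made into libraries with an mRNA kit, per the labels' protocols. The deposited values are estimated counts of each gene, made by the authors on GRCm39 per the submitters' processing notes. The file names point to salmon, and for its settings the sources used here give nothing. Counts were rounded. edgeR 4.0.16 (R 4.3.3, TMM scaling, filterByExpr, robust quasi-likelihood fit) was run on all 9 groups of the time course (52 libraries) and, separately, on the 5 groups of the 30 other libraries. p-values were Benjamini-Hochberg adjusted over all tested genes. A standard error is the log2 change divided by the square root of F. CPM are TMM-scaled, and log2 CPM carry a prior count of 2. DESeq2 1.42.0, limma 3.58.1 voom, other scaling and filters, and fits without 1 library were alternatives. The procedure was checked on simulated data.

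The members and the 54 gene lists were chosen with earlier results of these data known. Genes named are 16 panel genes, the 12 highest and 12 lowest called changes among genes whose mean log2 CPM reached 1 (provisional gene models left out), the 10 smallest p-values of the change and of its difference from sham, up to 4 called members per list, and further list members that a statement on the list needs. Some genes that this rule names are not reported here.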

Additional observations from a re-analysis of the deposited data

Results flagged for a closer look

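Among 221 named genes, 28 of 442 groups of 6 imiquimod ears held 1 ear far from the other 5, where chance gives about 1 in 20. Library 25 (day 5) had Chil4 at 1.23 CPM (above the next ear at 0.355). Library 26 (day 5) stood apart for Ldha at 1417 CPM (above the next ear at 1362). Library 27 (day 5) was set apart by Ccl20 at 16.5 CPM (above the next ear at 5.25), Kif26b at 6.35 CPM (above the next ear at 4.67), Cxcl1 at 47.3 CPM (above the next ear at 22.3) and Krt16 at 5904 CPM (below the next ear at 7264). Library 28 (day 5) had Padi1 at 3.14 CPM (above the next ear at 1.46) and Gapdh at 3029 CPM (below the next ear at 3231). Library 29 (day 5) stood apart for Mki67 at 278 CPM (above the next ear at 241). Library 30 (day 5) was set apart by Cxcr6 at 2.97 CPM (above the next ear at 1.91), Retnlg at 10.6 CPM (above the next ear at 6.24), Ly6c2 at 56.8 CPM (above the next ear at 26.8), Adam8 at 227 CPM (above the next ear at 152) and Nfil3 at 40.8 CPM (above the next ear at 27). Library 44 (day 8) had Il1b at 34.5 CPM (below the next ear at 59), Ccl20 at 8.29 CPM (above the next ear at 3.74), Cxcl1 at 18.6 CPM (above the next ear at 12.3) and Slc16a3 at 42.9 CPM (below the next ear at 61.3). Library 45 (day 8) stood apart for Krt1 at 21805 CPM (above the next ear at 18858) and Pvalb at 16.6 CPM (above the next ear at 9.61). Library 48 (day 8) was set apart by Sox13 at 17.5 CPM (above the next ear at 13.1). Library 49 (day 8) had Ids at 112 CPM (below the next ear at 130.1), Cxcl14 at 85.1 CPM (above the next ear at 67.6), Mt1 at 196 CPM (above the next ear at 159), Cp at 70.3 CPM (above the next ear at 57), Hp at 159 CPM (above the next ear at 122), Mt2 at 253 CPM (above the next ear at 198) and Krt14 at 15321 CPM (above the next ear at 13675). 

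The imiquimod change from day 5 to day 8 differed from the sham change for 52 of the named genes, tested as an interaction in edgeR with Benjamini-Hochberg adjustment. The difference on the log2 scale, imiquimod minus sham, was positive and largest for Skint2 2.08, Scart2 2.06, Padi1 1.93, Adrb3 1.65, Skint8 1.64, Kif26b 1.64, Cd4 1.47, Cd3d 1.43 and Ccr4 1.32. Next came Skint1 1.19, Itgae 1.13, Krt1 1.00, Ighm 0.98, Foxc2 0.84, Tsc22d3 0.84, Krt10 0.81, Per1 0.77 and Robo1 0.74. Smaller positive differences were those of Pla2g4f 0.67, Barx2 0.61, Vwf 0.57, Celsr2 0.47, Itpr2 0.45, Ids 0.45 and Hspa1b 0.34. It was negative, from the largest in size, for Ptx3 -2.89, Krt24 -2.89, Ccl2 -2.26, Ccl24 -1.98, Cxcl14 -1.51, C5ar1 -1.39, Hp -1.39, Serpinb6c -1.36 and Il33 -1.13. Then followed Mmp3 -1.11, Fgf7 -1.01, Il1r2 -0.97, Serpina3n -0.93, Lyve1 -0.89, Cyp26b1 -0.89, Pdpn -0.89, Cyp1b1 -0.86 and Srpx -0.75. Further negative differences were Ndrg1 -0.75, Ier3 -0.64, Mt1 -0.62, Mt2 -0.61, Nfatc4 -0.57, Lbp -0.56, Cp -0.53, Tfrc -0.48 and Il1r1 -0.48.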

How the results depend on the processing

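Values that moved by over 1.5 times (medians, by 0.1 or more) under another setting follow. The counts under the reported settings were 1110 genes higher under imiquimod, 1104 genes lower under imiquimod, 89 genes higher in sham ears, 206 genes lower in sham ears, 406 genes with a higher change than sham, 328 genes with a lower change than sham, 377 genes with a higher change than with the drug, 526 genes with a lower change than with the drug, 20 day-2 raised genes that rose, 167 day-2 raised genes that fell, -0.207 for the median of day-2 raised genes, 52 day-2 lowered genes that rose, 14 day-2 lowered genes that fell, 0.209 for the median of day-2 lowered genes, 79 separate-experiment raised genes that rose, 280 separate-experiment raised genes that fell, -0.151 for the median of separate-experiment raised genes, 198 separate-experiment lowered genes that rose, 96 separate-experiment lowered genes that fell and 0.0763 for the median of separate-experiment lowered genes. With DESeq2, they were 197 for genes higher in sham ears, 320 for genes lower in sham ears, 617 for genes with a lower change than sham, 876 for genes with a lower change than with the drug and 22 for day-2 lowered genes that fell. With no filter on low counts, they were 660 for genes higher under imiquimod, 39 for genes higher in sham ears, 114 for genes lower in sham ears, 179 for genes with a higher change than sham, 185 for genes with a lower change than sham, 125 for genes with a higher change than with the drug, 220 for genes with a lower change than with the drug, 13 for day-2 raised genes that rose, 102 for day-2 raised genes that fell, 9 for day-2 lowered genes that fell, 52 for separate-experiment raised genes that rose, 185 for separate-experiment raised genes that fell and 103 for separate-experiment lowered genes that rose. With limma voom and sample weights, they were 1675 for genes lower under imiquimod, 169 for genes higher in sham ears, 351 for genes lower in sham ears, 685 for genes with a higher change than sham, 543 for genes with a lower change than sham, 684 for genes with a higher change than with the drug, 1146 for genes with a lower change than with the drug, 40 for day-2 raised genes that rose, 278 for day-2 raised genes that fell, 123 for separate-experiment raised genes that rose and 499 for separate-experiment raised genes that fell. With only the compared groups in the fit, they were 120 for genes lower in sham ears, 754 for genes with a lower change than sham, 59 for genes with a higher change than with the drug, 79 for genes with a lower change than with the drug, 272 for day-2 raised genes that fell and 518 for separate-experiment raised genes that fell. Counting only log2 changes of at least 1 in size, they were 90 for genes higher under imiquimod, 133 for genes lower under imiquimod, 11 for genes higher in sham ears, 8 for genes lower in sham ears, 53 for genes with a higher change than sham, 49 for genes with a lower change than sham, 38 for genes with a higher change than with the drug, 125 for genes with a lower change than with the drug, 5 for day-2 raised genes that rose, 65 for day-2 raised genes that fell, 18 for day-2 lowered genes that rose, 5 for day-2 lowered genes that fell, 21 for separate-experiment raised genes that rose, 84 for separate-experiment raised genes that fell, 28 for separate-experiment lowered genes that rose and 20 for separate-experiment lowered genes that fell. With gene sets limited to a log2 of 2, they were 7 for day-2 raised genes that rose, 51 for day-2 raised genes that fell, -0.39 for the median of day-2 raised genes, 3 for day-2 lowered genes that rose, 4 for day-2 lowered genes that fell, 0.0148 for the median of day-2 lowered genes, 31 for separate-experiment raised genes that rose, 109 for separate-experiment raised genes that fell, 28 for separate-experiment lowered genes that rose and 24 for separate-experiment lowered genes that fell. With no fold limit on the sets, they were 163 for day-2 raised genes that rose, 657 for day-2 raised genes that fell, -0.0688 for the median of day-2 raised genes, 584 for day-2 lowered genes that rose, 161 for day-2 lowered genes that fell, 0.0819 for the median of day-2 lowered genes, 328 for separate-experiment raised genes that rose, 700 for separate-experiment raised genes that fell, 594 for separate-experiment lowered genes that rose and 270 for separate-experiment lowered genes that fell. Leaving out 1 library at a time gave 697 to 1200 for genes higher under imiquimod, 680 to 1179 for genes lower under imiquimod, 25 to 128 for genes higher in sham ears, 87 to 266 for genes lower in sham ears, 201 to 505 for genes with a higher change than sham, 177 to 410 for genes with a lower change than sham, 64 to 883 for genes with a higher change than with the drug, 59 to 1185 for genes with a lower change than with the drug, 89 to 178 for day-2 raised genes that fell, 32 to 66 for day-2 lowered genes that rose, 9 to 13 for day-2 lowered genes that fell, 52 to 81 for separate-experiment raised genes that rose, 143 to 291 for separate-experiment raised genes that fell and 105 to 239 for separate-experiment lowered genes that rose. Directions turned for genes that did not pass, whose log2 changes without 1 imiquimod library ranged around 0 for Adgre1 (-0.16 to 0.0497), Cd3e (-0.00579 to 0.253), Lyz2 (-0.0452 to 0.137) and Mki67 (-0.0537 to 0.0315). With limma voom the change of Adgre1 was 0.00132. Of 186 called named genes, 121 kept their call in all 12 fits without 1 imiquimod library, 137 under all 6 other settings and 119 under both. The cause of these shifts was not tested. No paired analysis was possible because the groups compared share no replicate numbers. Genes within about 3 counts a library have uncertain folds, and depth limits what can be said of them.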
